A study of Homo sapiens with 6 samples.

Results

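The 9 genes described here encode OTX2 and the homeobox and paired-box transcription factors that pattern the midbrain and hindbrain, namely GBX2, EN1, EN2, LMX1A, LMX1B, PAX2, PAX5 and PAX8. They were picked by name, with their values in these libraries already known, from the 23346 gene rows of a table of RNA sequencing values, and all 9 have a row. The samples were cultures of KhES-1, a human embryonic stem cell line, maintained with AKIT, or with Essential 8 (E8) as control. FGF2 and TGF-beta are supplied in E8, whereas AKIT is known to replace such growth factors with small molecules that inhibit GSK3, DYRK kinases and calcineurin. All dishes carried 0.5 µg per square cm of a laminin fragment, shared by both media, and the E8 in the name of the fragment is not the medium. The comparison was made between 3 AKIT libraries and E8 replicates 1 and 2, and E8 replicate 3 was not analysed here. All libraries come from 1 cell line. No label states whether replicates came from separate cultures, and the p-values therefore reflect a spread among libraries that may be technical.

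In the vertebrate embryo OTX2 marks the forebrain and midbrain and GBX2 the anterior hindbrain, and in the mouse the mutual repression of both factors places the boundary between them. At that boundary the isthmic organizer secretes FGF8 and WNT1, and PAX2, PAX5, PAX8, EN1, EN2 and LMX1B act in the regulatory loop that forms and maintains it. OTX2 has an earlier role as well, since in the mouse it accompanies the passage of pluripotent cells out of the naive state into the primed state that human embryonic stem cells resemble.

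Levels are given in RPKM, which scales reads by gene length and by library depth, so that levels of different genes can be set side by side. The libraries rested on 23253216, 23263095 and 19398694 reads for AKIT replicates 1, 2 and 3, and on 17657634 and 16242864 reads for E8 replicates 1 and 2, as recovered from the steps of the low values. For the 9 genes, 3 reads in 1 library corresponded to 0.0221 to 0.138 RPKM, and a value of 0 allows a level up to that of 3 reads (counting error only). Markers of the labelled cell type were expressed in every library. POU5F1 was at 296 to 399.99 RPKM in AKIT and 313 to 342 in E8, LIN28A at 793 to 813 in AKIT and 926 to 976 in E8, and NANOG at 7.60 to 12.9 in AKIT and 7.98 to 8.31 in E8. SOX2 was at 220 to 305 RPKM in AKIT and 419 to 450 in E8, and SALL4 at 130 to 177 in AKIT and 202 to 221 in E8. Over the 5 libraries DPPA4 was at 430 to 449 RPKM, TDGF1 at 319 to 379 and LIN28B at 68.0 to 86.7. Of 5 neural progenitor markers, SOX1, PAX6 and ZIC1 did not exceed 0.817, 0.440 and 0.723 RPKM in any library. The other two were expressed throughout, NES at 191 to 222 RPKM over the 5 libraries and DCX at 3.92 to 6.22.

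OTX2 was the only one of the 9 genes expressed at a high level, and it was lower in AKIT. OTX2 had 20.1, 59.7 and 23.0 RPKM in AKIT replicates 1, 2 and 3, against 141 and 149.8 RPKM in E8 replicates 1 and 2. The 3 AKIT libraries all lay below both E8 libraries, and among them AKIT replicate 2 stood 2.97 times as high as replicate 1. Its mean was 34.2 ± 22.1 RPKM in AKIT (SD, n = 3) and 145 ± 6.49 RPKM in E8 (SD, n = 2), so that the AKIT mean was 0.236 times the E8 mean. On the log2(RPKM + 1) scale the difference, AKIT minus E8, was -2.22 ± 0.42 (standard error), beside a median difference of -0.01 over the 14776 genes tested. OTX2 ranked above 90.7% of all gene rows by its AKIT mean and above 98.8% by its E8 mean. This difference is among the values with which the genes were chosen, and it is given without a test. The values rested on 1001 to 3121 reads in AKIT libraries and 5470 to 5582 in E8 libraries. Sampling of reads alone would place AKIT replicate 2 between 57.6 and 61.8 RPKM and AKIT replicate 1 between 18.9 and 21.4 (exact Poisson intervals at 95%, counting error only), so the spread among AKIT libraries exceeded counting error. In bulk RNA a smaller number of cells that express a gene and less RNA in each cell cannot be told apart.

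**Figure D1:**
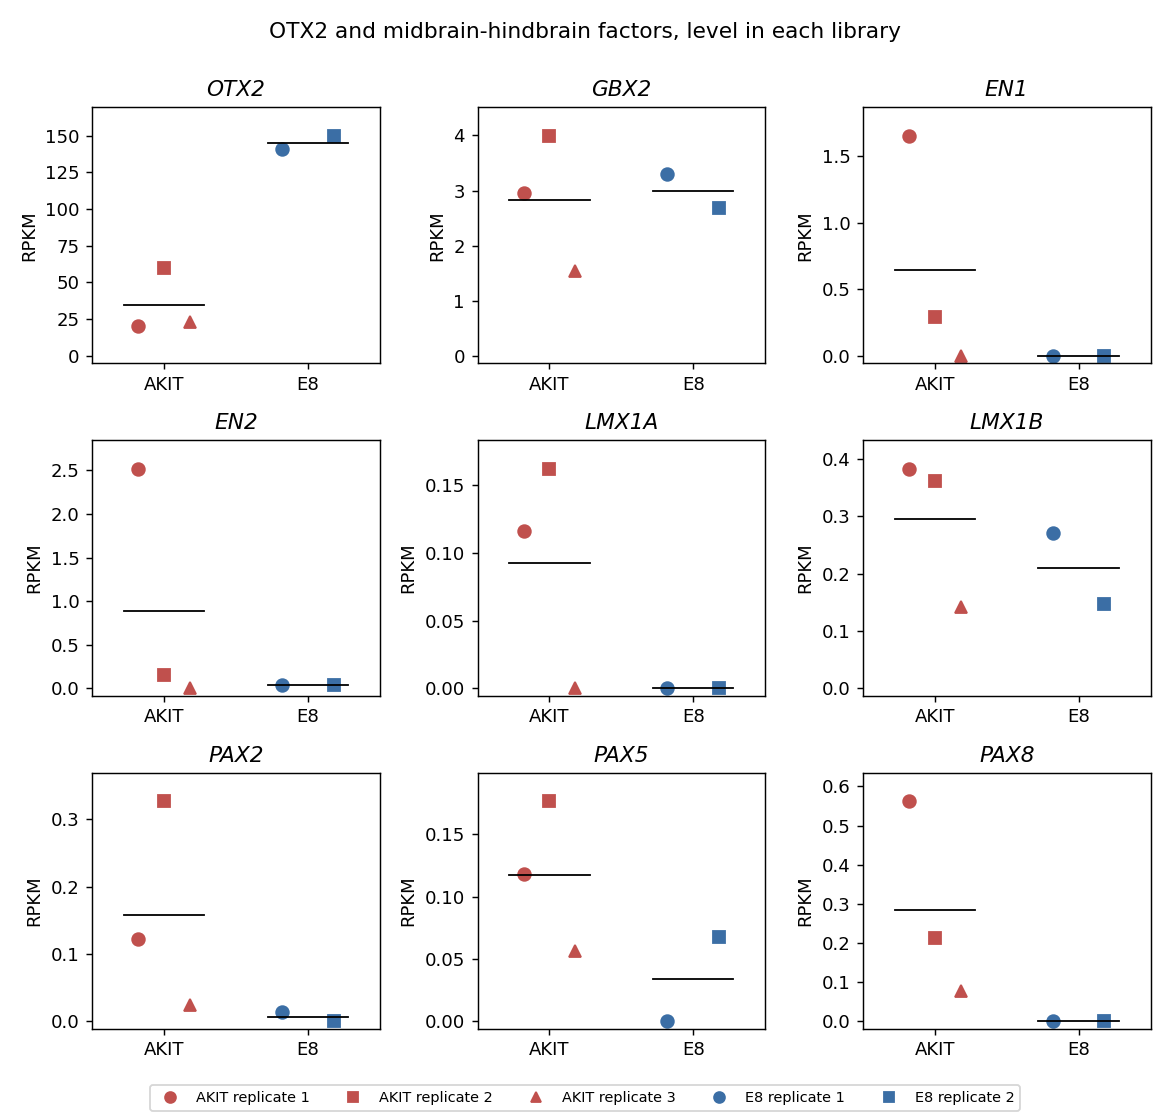
Level of each of the 9 genes in RPKM (vertical axes, each on its own linear scale) in the 3 AKIT libraries and the E8 libraries, with 1 point per library and a line at the mean of each medium. OTX2 stands at 20.1 to 59.7 RPKM in AKIT and 141 to 149.8 in E8, and AKIT replicate 3 has the lowest AKIT value of every other gene.

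RefSeq annotates the OTX2 gene on the minus strand of chromosome 14 with 2 start positions in GRCh38.p14, a newer build than the hg19 used for the values. The 250 bases before each start are shown, together with those of GBX2, EN2 and PAX8, because OTX2 is the gene that was high in every library, GBX2 is its counterpart, and EN2 and PAX8 were read mostly in 1 AKIT library. Sequences run 5′ to 3′ on the strand of the gene, and capitals mark TAAT, the core bound by many homeodomains, and the CCAAT box, each on either strand (ATTA and ATTGG). No TAAT match overlapped a CCAAT match in these windows.
OTX2 start 1 (chr14:56810480-56810729, minus strand): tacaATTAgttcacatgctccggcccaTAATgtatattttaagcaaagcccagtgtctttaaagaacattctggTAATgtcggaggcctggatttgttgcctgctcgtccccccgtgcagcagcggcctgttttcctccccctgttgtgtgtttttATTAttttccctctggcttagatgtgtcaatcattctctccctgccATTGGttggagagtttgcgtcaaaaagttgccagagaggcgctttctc
OTX2 start 2 (chr14:56805668-56805917, minus strand): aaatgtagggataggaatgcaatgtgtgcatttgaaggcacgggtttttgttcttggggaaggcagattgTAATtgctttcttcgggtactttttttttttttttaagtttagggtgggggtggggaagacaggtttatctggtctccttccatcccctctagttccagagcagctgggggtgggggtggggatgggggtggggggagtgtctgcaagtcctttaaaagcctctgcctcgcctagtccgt
GBX2 (chr2:236168387-236168636, minus strand): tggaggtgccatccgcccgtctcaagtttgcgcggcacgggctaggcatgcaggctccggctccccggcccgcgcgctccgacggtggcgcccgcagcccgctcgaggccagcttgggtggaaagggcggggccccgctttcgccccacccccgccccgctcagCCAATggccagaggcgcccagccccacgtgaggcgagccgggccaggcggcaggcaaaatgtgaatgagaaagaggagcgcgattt
EN2 (chr7:155457879-155458128, plus strand): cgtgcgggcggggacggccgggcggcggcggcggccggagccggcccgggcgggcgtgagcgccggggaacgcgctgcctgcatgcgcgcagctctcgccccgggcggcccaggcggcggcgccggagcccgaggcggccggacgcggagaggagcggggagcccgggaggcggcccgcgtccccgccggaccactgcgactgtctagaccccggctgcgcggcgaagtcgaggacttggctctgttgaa
PAX8 (chr2:113278922-113279171, minus strand): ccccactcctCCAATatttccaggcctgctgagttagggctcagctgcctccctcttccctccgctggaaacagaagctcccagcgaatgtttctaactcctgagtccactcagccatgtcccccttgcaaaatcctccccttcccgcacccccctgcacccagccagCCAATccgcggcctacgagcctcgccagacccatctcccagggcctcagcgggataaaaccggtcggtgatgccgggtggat

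Promoter sequences were matched for 8 of the 9 genes, in 11 windows, and EN1 had no entry. TAAT occurred 4 times before the first OTX2 start and once before the other start, and it was absent from the windows of the other 7 genes. Over all 35116 windows of the same length, 47.4% held TAAT and 10.4% held it at least 4 times. CCAAT was present in the first OTX2 window and in those of GBX2 and PAX8, and absent from the rest of the 11 windows. Of all windows, 32.0% held it. Neither TAATCC, the sequence preferred by OTX proteins (5.62% of all windows), nor CTTTGA, the core of TCF and LEF sites (11.2% of all windows), was found in any of the 11 windows, each searched on both strands. The first OTX2 window had a GC content of 47.2%, that of PAX8 61.6%, that of GBX2 72% and that of EN2 81.2%, beside a median of 58% over all windows. These matches describe letters in the windows, and binding was not measured.

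GBX2, the hindbrain counterpart of OTX2, was low in both media, with no separation between them. Levels of GBX2 were 2.96, 3.99 and 1.54 RPKM in AKIT replicates 1, 2 and 3, against 3.31 and 2.67 RPKM in E8 replicates 1 and 2. Its AKIT libraries lay on both sides of the E8 libraries, with AKIT replicate 2 the highest and AKIT replicate 3 the lowest of all. The means were 2.83 ± 1.23 RPKM in AKIT (SD, n = 3) and 2.99 ± 0.448 RPKM in E8 (SD, n = 2), a log2 difference of -0.11 ± 0.27 (standard error). The direction of this small difference depends on single libraries, for it was 0.16 without AKIT replicate 3 and 0.01 without E8 replicate 1. The ratio of OTX2 level to GBX2 level was lower in AKIT, at 6.78, 14.9 and 14.9 in AKIT replicates 1, 2 and 3, against 42.5 and 56.0 in E8 replicates 1 and 2. OTX2 made up 70.4% to 92.6% of the summed RPKM of the 9 genes in AKIT libraries and 97.5% to 98.1% in E8 libraries. The row of OTX2OS1, the noncoding RNA gene that RefSeq now names OTX2-AS1, did not exceed 0.159 RPKM in AKIT or 0.047 in E8. The sources used here do not give whether reads were assigned by strand, so reads of the antisense RNA and of OTX2 cannot be told apart where they overlap.

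EN1 and EN2, the engrailed homeobox factors of the midbrain and anterior hindbrain, were found mostly in 1 AKIT library. EN2 had 2.52, 0.152 and 0 RPKM in AKIT replicates 1, 2 and 3, against 0.033 and 0.036 RPKM in E8 replicates 1 and 2. AKIT replicate 1 stood 16.6 times as high as AKIT replicate 2, while AKIT replicate 3 was below both E8 libraries, so the media overlapped. EN1 reached 1.66 RPKM in AKIT replicate 1 and 0.290 RPKM in AKIT replicate 2, with 0 in AKIT replicate 3 and in both E8 libraries. Of the reads of EN2 in AKIT, 94.3% came from replicate 1 (199 of 211), and of those of EN1 85.1% (57 of 67). With reads pooled over the AKIT libraries, EN1 stood at 11.5 times the level of 3 reads over both E8 libraries together. That ratio leaves out the spread among AKIT libraries, of which replicate 3 was at 0 like E8. The read numbers of EN1 are the smallest whole numbers that its values allow. The log2 difference of EN2 was 0.62 ± 0.50 (standard error) with all libraries and 0.05 without AKIT replicate 1, and that of EN1 was 0.59 and 0.18. EN2 passed the filter of a mean of 0.5 RPKM only through AKIT replicate 1.

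The paired-box factors PAX2, PAX5 and PAX8, which act early at the midbrain-hindbrain boundary and later in kidney, B cells and thyroid, were at trace levels. Levels of PAX8 were 0.562, 0.212 and 0.076 RPKM in the AKIT libraries in order of replicate, against 0 in both E8 libraries. The AKIT libraries all lay above E8, with 53, 20 and 6 reads. Pooled over the AKIT libraries, PAX8 stood at 13.5 times the level of 3 reads over both E8 libraries together. That ratio leaves out the spread among AKIT libraries, of which replicate 1 held 67.1% of the PAX8 reads. The 6 reads of AKIT replicate 3 allow 0.0280 to 0.166 RPKM (exact Poisson interval, counting error only). This range reaches below the level of 3 reads in E8 replicates 1 and 2, 0.0419 and 0.0455 RPKM. Counting error therefore does not separate AKIT replicate 3 from E8. PAX2 had 0.123, 0.327 and 0.024 RPKM in AKIT replicates 1, 2 and 3, against 0.013 and 0 RPKM in E8 replicates 1 and 2. The media did not overlap, but the lowest AKIT library had 2 reads and the higher E8 library 1 read, which counting error does not separate. PAX5 was at 0.118, 0.177 and 0.056 RPKM in AKIT, against 0 and 0.067 RPKM in E8, and the media overlapped. Together, PAX2, PAX5 and PAX8 summed to 0.803, 0.715 and 0.157 RPKM in AKIT replicates 1, 2 and 3 and to 0.013 and 0.067 RPKM in E8 replicates 1 and 2.

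LMX1A and LMX1B are LIM homeobox factors, the first of the midbrain floor plate and roof plate and the second of the isthmus and of dopaminergic and serotonergic precursors. LMX1B had 0.384, 0.361 and 0.141 RPKM in AKIT replicates 1, 2 and 3, against 0.272 and 0.148 RPKM in E8 replicates 1 and 2. AKIT replicates 1 and 2 were above both E8 libraries and AKIT replicate 3 was below them. LMX1A reached 0.116 RPKM in AKIT replicate 1 and 0.162 RPKM in AKIT replicate 2, or 10 and 14 reads, with 0 in AKIT replicate 3 and both E8 libraries. With reads pooled over the AKIT libraries, LMX1A stood at 4.11 times the level of 3 reads over both E8 libraries. That ratio leaves out the spread among AKIT libraries.

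**Figure D2:**
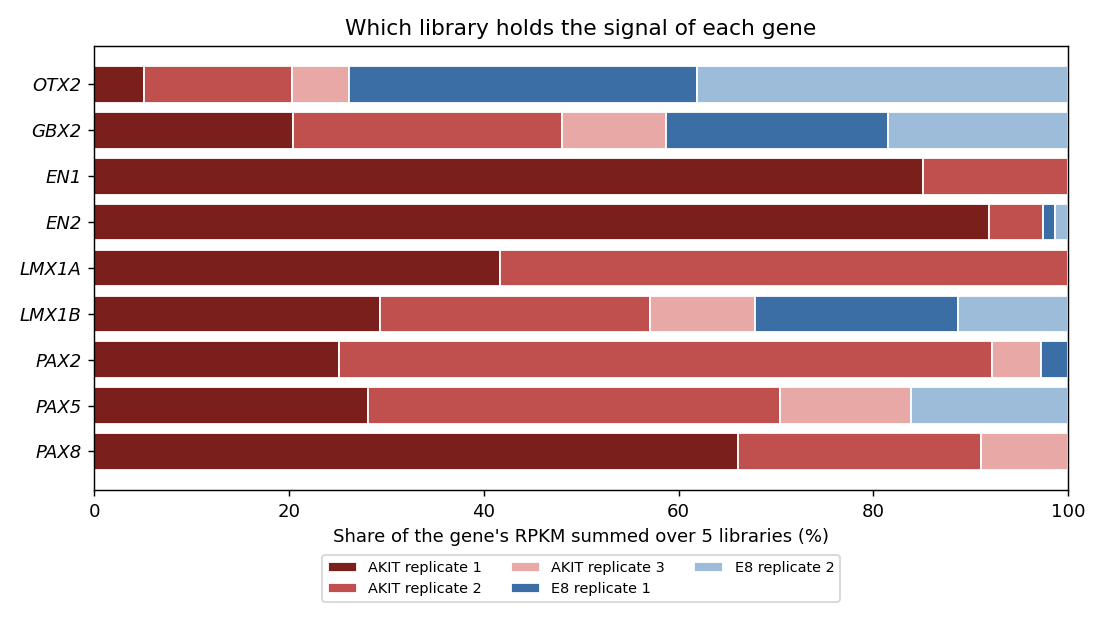
Share of each gene's RPKM, summed over the 5 libraries, that each library holds (horizontal axis, percent, with AKIT libraries in reds to the left and E8 libraries in blues to the right). E8 libraries hold 35.8% and 38.1% of OTX2, whereas AKIT replicate 1 holds 91.9% of EN2, 85.1% of EN1 and 66.1% of PAX8, and AKIT replicate 2 holds 67.1% of PAX2.

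Across the 9 genes, the media did not overlap for 3, OTX2 on the low side and PAX2 and PAX8 on the high side. Libraries of the media did not overlap for 46.9% of all rows above 0 in any library and for 54.4% of the genes tested, so the count of 3 is no result about these genes. The background of rows not overlapping was 28.6% of tested genes on the low side and 25.8% on the high side. Only OTX2, GBX2 and EN2 passed the filter on low values, and the other 6 genes stayed below it. AKIT replicate 3 had the lowest AKIT value of 8 genes, the exception being OTX2, which was lowest in AKIT replicate 1. Without AKIT replicate 3 the media did not overlap for 8 genes, 7 higher and 1 lower in AKIT, and GBX2 alone still overlapped. Over the 19727 rows above 0 in those 4 libraries, 56.1% did not overlap, 26.7% on the high side and 29.3% on the low side, and nothing is read from the members' count, since they were chosen with these values known. In order of mean level the genes ran OTX2, GBX2, EN2, EN1, LMX1B, PAX8, PAX2, PAX5 and LMX1A in AKIT, and OTX2, GBX2, LMX1B, EN2, PAX5 and PAX2 in E8, followed by EN1, LMX1A and PAX8 at 0. OTX2 stood above GBX2, and GBX2 above each of the remaining 7 genes, in every E8 library and every AKIT library. From EN2 downwards in AKIT the ranges over libraries of neighbouring genes overlapped, as did those of EN2, PAX5 and PAX2 in E8.

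The uneven level of EN1, EN2 and PAX8 among AKIT libraries was shared by genes outside the 9, of which those named in this paragraph were chosen after their values were seen. PAX3, a paired-box factor of the dorsal neural tube and neural crest, had 1.57, 0.281 and 0.10 RPKM in the AKIT libraries in order of replicate, against 0.110 and 0.015 RPKM in E8. POU3F2, a POU factor of neural progenitors, was at 4.0, 0.747 and 0.151 RPKM in AKIT and at 0.222 and 0.301 in E8. TFAP2B, a neural crest factor, was at 2.40, 0.060 and 0.018 RPKM in AKIT and 0 in E8. The proteoglycan gene LUM was at 5.81, 1.83 and 0.024 RPKM in AKIT and 0 in E8, and DCN at 0.754, 0.069 and 0 in AKIT and 0 in E8. AKIT replicate 1 was thus the highest library for each of these genes. Among the 14 neural progenitor markers, which include POU3F2, 2 were highest in AKIT replicate 1. Their sum was 792, 906 and 805 RPKM in AKIT replicates 1, 2 and 3, against 1119 and 1050.5 RPKM in E8 replicates 1 and 2. Of 14 neural crest and fibroblast markers, 5 were highest in AKIT replicate 1. This list summed to 291, 242 and 234 RPKM in AKIT replicates 1, 2 and 3, against 475 and 463 RPKM in E8 replicates 1 and 2. In AKIT replicate 1, THY1 alone had 203 RPKM of that sum, and SOX2, TUBB3 and NES had 220, 205 and 191 RPKM of the neural progenitor sum. Sums so weighted do not show the level of low genes such as POU3F2 or TFAP2B. TFAP2B, LUM and DCN were at 0 in both E8 libraries. The part of such cells in the levels of EN1, EN2 and PAX8 was not tested. Over the 19892 rows above 0 in any library, AKIT replicate 1 was at least 4 times as high as every other library for 261, or 1.31%, EN1 and EN2 among them. Among the 14776 genes tested, from which most low genes are absent, there were 6 such genes (0.0406%). Those were EN2, POU3F2, COL8A1, NT5E, PLXNA2 and SEMA3C. EN2 passed the filter only through AKIT replicate 1, the library in which it is high, so nothing about EN2 is read from that share.

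**Figure D3:**
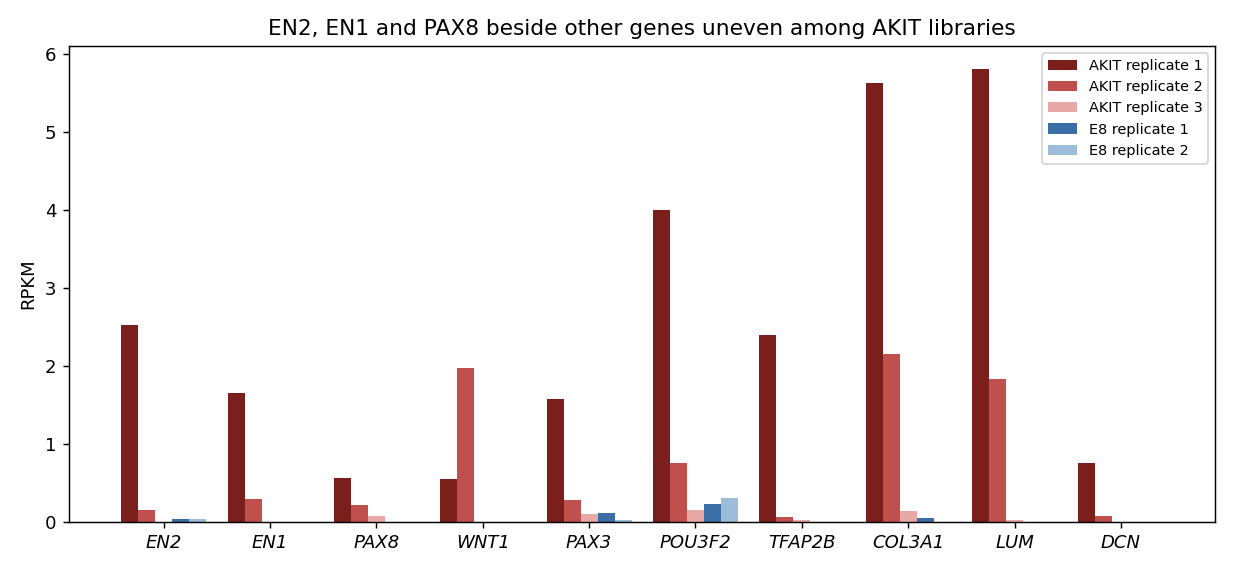
Level in RPKM (vertical axis from 0) of EN2, EN1 and PAX8 and of 7 other genes chosen after their values were seen, with 1 bar per library and AKIT libraries to the left of E8 libraries. Apart from WNT1, highest in AKIT replicate 2 at 1.98 RPKM, each gene is highest in AKIT replicate 1.

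The profile of OTX2 over the 5 libraries was nearest to those of IRX2, CTGF, MIR302D, FOXD3 and MIR302C. Likeness was the root mean square difference of log2(RPKM + 1) after the mean of each gene was subtracted, over the 9472 other genes whose mean reached 5 RPKM, and it is a description over 5 libraries with no test. IRX2, an Iroquois homeobox factor of the neural plate, differed from OTX2 by 0.18, with 12.2, 29.2 and 13.5 RPKM in AKIT replicates 1, 2 and 3 and 73.9 and 66.2 RPKM in E8 replicates 1 and 2. CTGF, a secreted matrix protein and target of YAP, differed by 0.20, and FOXD3, a forkhead factor of pluripotent and neural crest cells, by 0.25. The rows of the microRNA genes MIR302D and MIR302C, of the miR-302 cluster of pluripotent cells, differed by 0.20 and 0.26. These 5 genes share with OTX2 the E8 libraries as the highest and AKIT replicate 2 as the highest of the AKIT libraries. That order, with the media not overlapping, was seen in 11.5% of the genes tested. GBX2 was nearest to SNORD50B, DPYSL5, a neuronal protein of the collapsin response family, and RPS28, a ribosomal protein, at 0.09, 0.10 and 0.11. SNORD50B and the microRNAs are short genes inside longer transcripts, whose reads cannot be told apart from theirs. At their length the same RPKM rests on fewer reads than in longer genes, and their read numbers are not given here.

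**Figure D4:**
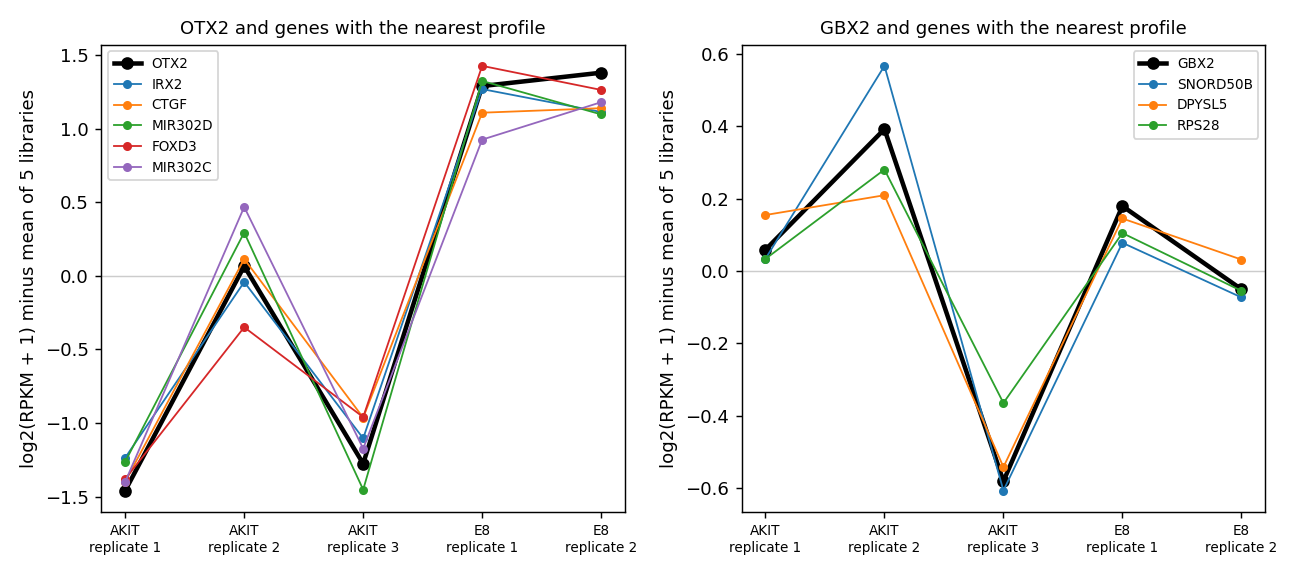
Profiles of OTX2 (left) and GBX2 (right) as thick black lines with those of the nearest genes, in log2(RPKM + 1) minus the mean of each gene over 5 libraries (vertical axis), by library (horizontal axis, lines only join the points of a gene). The genes nearest to OTX2 are highest in both E8 libraries, and those nearest to GBX2 are lowest in AKIT replicate 3.

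Related genes were tested in the fit over all 14776 genes, in which limma called 20% (adjusted p under 0.05 after Benjamini-Hochberg adjustment), 8.22% as higher and 11.7% as lower in AKIT. Only genes past that threshold are said to have risen or fallen. Among 13 tested signals and receptors of the isthmic organizer, 3 rose and 4 fell, with a median log2 difference of -0.24. FGF8, the ligand made by the organizer, rose to 5.97, 5.42 and 7.57 RPKM in AKIT, against 1.12 and 0.555 RPKM in E8 (log2 difference 2.0 ± 0.19, limma adjusted p = 0.00171). FGFR3, an FGF receptor, fell to 9.27 ± 0.934 RPKM in AKIT (SD, n = 3), against 49.4 ± 0.417 RPKM in E8 (SD, n = 2). DUSP6, an ERK phosphatase induced by FGF, fell to 4.97 ± 2.18 RPKM in AKIT, against 67.3 ± 3.85 RPKM in E8. The other genes past the test, named after their values were seen, were FGF17, IL17RD, an inhibitor of FGF signalling that rose by 0.51 on the log2 scale, and the receptors FGFR1 (-0.69 ± 0.16) and FGFR2 (-0.89 ± 0.15), which fell. FGF17, a close relative of FGF8, rose to 2.53, 3.66 and 1.52 RPKM in AKIT, against 0.093 and 0 RPKM in E8 (limma adjusted p = 0.00605). Without E8 replicate 1, and likewise without E8 replicate 2, 1 gene of the list rose and 2 fell, and the calls of FGF17, IL17RD, FGFR1 and FGFR2 ended. That of FGFR1 also ended without AKIT replicate 1 and without AKIT replicate 3. WNT1, the other organizer ligand, was at 0.546, 1.98 and 0 RPKM in AKIT and 0 in E8, and it did not pass (limma adjusted p = 0.242).

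Other homeobox genes of brain regions were mostly low. Of 19 relatives of the OTX, GBX, LIM and PAX families, 4 were tested, 0 rose and 0 fell, with a median log2 difference of -0.25. The smallest p-values were those of LHX5, a LIM factor of the forebrain (log2 difference -0.71 ± 0.30, limma adjusted p = 0.141), and LHX4 (-0.24 ± 0.14, limma adjusted p = 0.266). Of 18 forebrain and eye field factors, 4 were tested, 0 rose and 1 fell, with a median of 0.09. This was EMX1, a factor of the dorsal forebrain, at 0.118, 0 and 0.118 RPKM in AKIT and 1.97 and 2.25 RPKM in E8 (limma adjusted p = 0.00159). Of 17 hindbrain factors, 6 were tested, 0 rose and 3 fell, with a median of -0.53. These were IRX2 above, EGR2, a factor of hindbrain segments (log2 difference -0.70 ± 0.18), and IRX3 (-0.54 ± 0.14), and all 3 calls ended without E8 replicate 1 or E8 replicate 2. Those of EGR2 and IRX3 also ended without AKIT replicate 1 or 3. Of 18 markers of midbrain floor plate and dopaminergic cells, 4 were tested, 1 rose and 0 fell, with a median of 0.10. FOXA2, a forkhead factor of floor plate and endoderm, rose to 2.80 ± 0.855 RPKM in AKIT (SD, n = 3), against 0.537 ± 0.160 RPKM in E8 (SD, n = 2), and its call ended without either E8 library.

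Genes listed with OTX2 in primed pluripotency fell more often than they rose in AKIT, and 4 naive factors rose. These lists were chosen with earlier results of these data known, so their counts are a description. Of 17 tested genes listed as primed pluripotency partners of OTX2, 9 fell, 0 rose and 8 did not pass, with a median log2 difference of -0.79. Of all tested genes, 11.7% fell. The largest falls were those of DUSP6, FOXD3 (21.2 ± 8.08 RPKM in AKIT and 99.4 ± 8.03 RPKM in E8) and SOX3, a SOXB1 factor (5.85 ± 0.390 RPKM in AKIT and 29.3 ± 3.18 RPKM in E8). The count was 6 without E8 replicate 1 and 5 without E8 replicate 2. Of 10 tested naive pluripotency factors, 4 rose and 0 fell, with a median of 0.45, and KLF4 led them at 13.4 ± 1.31 RPKM in AKIT and 2.02 ± 0.307 RPKM in E8. DPPA3 rose by 1.84 and TBX3 by 1.29 on the log2 scale, and NLRP7, named after its values were seen, by 1.24. Of 11 tested neural progenitor markers, 1 rose and 3 fell, with a median of -0.51. SOX3, ZIC2, a zinc finger factor (-2.11 ± 0.13), and SOX2 (-0.79 ± 0.16) fell, and all 3 are also among the 9 primed partners that fell. TUBB3, a tubulin of neurons named after its values were seen, rose by 0.61 on the log2 scale. The calls of SOX2 and TUBB3 ended without E8 replicate 1 and without E8 replicate 2, and that of SOX2 also without AKIT replicate 3. Of 12 tested beta-catenin targets, 2 rose and 2 fell, with a median of 0.20. SP5, a repressor induced by Wnt, rose by 2.51 and TCF7 by 1.10 on the log2 scale, while BAMBI, a pseudoreceptor, fell by 1.75 and NOTUM, a Wnt deacylase named after its values were seen, fell by 0.67. The calls of SP5 and NOTUM ended without E8 replicate 1 and without E8 replicate 2. That of NOTUM also ended without AKIT replicate 1, without AKIT replicate 3, with a pseudocount of 0.1 and without the filter on low values.

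PAX2, PAX5 or PAX8 also act in kidney, ear, thyroid and B cells, and few markers of these tissues were high enough to be tested, so that a count of 0 that rose lies close to the 8.22% of all tested genes. Of 3 tested kidney and intermediate mesoderm markers, 2 fell, SALL1 (-1.73 ± 0.13) and SIX2 (-0.89 ± 0.19), and 0 rose, with a median of -0.89. Of 4 otic and placode markers, 3 fell, FOXI3, TFAP2A and SIX4, and 0 rose, with a median of -0.92. Of 2 thyroid markers, HHEX fell (-1.04 ± 0.20), and 0 rose, with a median of -0.56, while the thyroid factor NKX2-1 was at 0 in every library. Of 3 tested B cell markers, 0 rose and 0 fell, with a median of -0.09, and MS4A1, BLK, VPREB1 and PTPRC were at 0 in every library. The smallest p-values there were those of RAG1 (limma adjusted p = 0.0636) and CD79B (limma adjusted p = 0.467). Of 12 tested neural crest and fibroblast markers, 7 fell and 0 rose, with a median of -0.61, led by FOXD3, NGFR (-1.93 ± 0.16) and TFAP2A (-1.32 ± 0.19). The count that fell was 2 without E8 replicate 1 and 2 without E8 replicate 2. Without AKIT replicate 3, 2 rose and 5 fell. Of 5 tested endoderm markers, 1 rose (FOXA2) and 1 fell (HHEX), with a median of 0.14. The calls of HHEX, SIX2, SIX4 and TFAP2A ended without E8 replicate 1 and without E8 replicate 2, and that of SIX4 also without AKIT replicate 3.

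**Figure D5:**
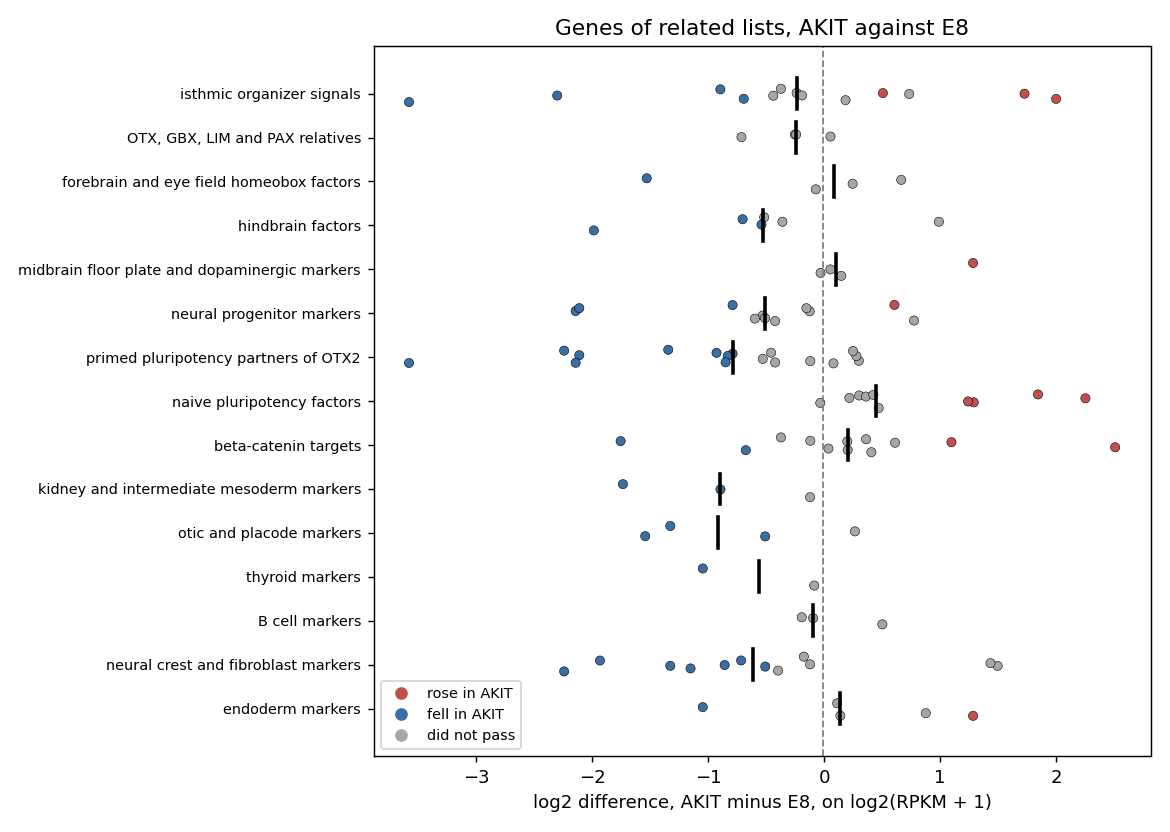
Log2 difference, AKIT minus E8 on log2(RPKM + 1) (horizontal axis), of the tested genes of 15 related lists (rows), with 1 point per gene, a black bar at the median of each list and a dashed line at the median of all tested genes, -0.01. The points of primed pluripotency partners lie mostly to the left (9 fell and 0 rose) and those of naive factors mostly to the right (4 rose and 0 fell). The lists were chosen with earlier results of these data known.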

How the data were processed

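Total RNA of KhES-1 cells was sequenced on an Illumina platform, as the labels' protocols describe. The authors deposited 1 table of RPKM values by gene symbol, already normalized for gene length and depth. Builds hg19 and GRCh37 are named in the submitters' processing notes, while aligner, counter, annotation and strand setting are unstated in the sources read here. Columns were matched to samples by title, for 5 of the 6 samples. Library totals and reads were recovered from the steps of the values, which gave whole reads (within 0.0503 of a read) for 99.97% of the 19892 genes above 0. Totals were set by matching recovered lengths to GENCODE transcripts. At the scale chosen, 2 times the smallest possible total, 316 of 3000 compared genes matched a transcript length, against 142 at 4 times. All read numbers given here rest on that choice. Reads served for depth, intervals and 1 alternative.

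Reads differed between replicates by more than sampling noise, with a chi-square per gene of 17.4 to 33.2 among AKIT libraries and 3.41 for the E8 pair. Values on log2(RPKM + 1) of genes whose mean reached 0.5 RPKM were fitted in limma 3.58.1 under R 4.3.3, using an intensity trend and two-sided tests, with Benjamini-Hochberg adjustment at 0.05. The design planned 3 libraries per medium, and 3 AKIT and 2 E8 libraries were used here. The members and gene lists were chosen with earlier results of these data known. Some genes stand in several lists, such as SOX2, SOX3, ZIC2, DUSP6, FOXD3, TFAP2A, HHEX and FOXA2, so list counts are not separate results. From each list up to 3 called genes were named by size of change, or the 2 with the smallest p where none passed, and the nearest profiles (5 for OTX2, 3 for GBX2), NANOG, POU5F1 and SOX2 were named in any case. Cell type markers were named as whole lists, and further genes named in the text are said there to have been chosen after their values were seen. The alternatives were a pseudocount of 0.1, no filter, median-of-ratios scaling, a replicate block, voom on recovered reads with TMM scaling, and each library left out. Promoter sequences are from RefSeq (GRCh38.p14), and no coordinates are given for the values.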

Additional observations from a re-analysis of the deposited data

How the results depend on the processing

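The log2 difference of OTX2 kept its sign under every alternative run, between -2.70 without AKIT replicate 2 and -1.94 without AKIT replicate 1. The number of genes called, 2950 with all libraries, was 392 to 4751 when 1 library was left out, and the number called among the related genes, 40 with all libraries, was 17 to 50, with the lowest values where 1 E8 library was left out. With a single E8 library, that library is assumed to vary like the AKIT libraries. The number of members whose media did not overlap was 3 to 8, and the 8 came without AKIT replicate 3, where 56.1% of all rows above 0 did not overlap. With the replicate number as a block, which uses replicates 1 and 2 of each medium alone, 1372 genes were called and 8 members did not overlap, and fewer libraries enter that fit. Deviations of same-numbered libraries from the mean of their medium had correlations of -0.00128 and 0.0254. The deviations of the E8 libraries mirror each other, so these correlations cannot decide whether same-numbered libraries were paired. With a pseudocount of 0.1, log2 differences of low members were larger, such as 2.03 for EN1 and 1.73 for PAX8, as a smaller pseudocount makes them, and with voom that of EN2 was 1.91. The same 5 genes were nearest to OTX2 under both alternatives run for that. Of the 40 related genes called, 0 changed sign under any alternative run. The calls of NOTUM and SIX2 ended with a pseudocount of 0.1, and those of EGR2, FGFR1, NOTUM and SOX9 without the filter. Without E8 replicate 1, 22 of the 40 calls ended, and without E8 replicate 2, 23. With the block, 11 ended. Members below 0.5 RPKM rest on at most 57 reads in a library, which limits what can be said of them.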
